A study of Mus musculus with 4 samples.

Results

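The genes of the mitochondrial respiratory chain and of the Chchd family were described in 4 mouse melanocyte lines. Members were all genes whose symbol starts with Nduf, with Sdh followed by a, b, c or d, with Uqcr, Atp5 or Chchd, or with Cox followed by a digit from 4 to 8. Of the 18193 genes that had a probe set of their own on the Affymetrix array, 101 met this rule, and each was read by its brightest probe set over the 4 lines. The lines were established from the skin of C57BL/6J pups 3 days old and kept in medium with the phorbol ester TPA (200 nM), with 1 array for each line. Lines 9v (male) and 10d (male) are WT and bcat*, respectively, in both the article and the labels. Lines 13d (female) and 14d (female) are bcat* and WT by the labels but WT and bcat* by the article, so that all lines are named here by line. Cells called bcat* carry a transgene for a stable, transcriptionally active β-catenin in the melanocyte lineage, and each immortalized line stands for the animal it came from.

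All 8 melanocyte markers examined, Tyr, Dct and Mitf among them, were at intensities of 4018 or more in every line, and markers of endothelium, leukocytes and germ cells lay under the level taken as on. Of 7 fibroblast markers 1, Col1a2, was on, and their summed intensities were 232 in line 9v, 131 in line 10d, 76 in line 13d and 71 in line 14d. Of 5 keratinocyte markers 1, Krt10, was on, with 148 in line 9v, 268 in line 10d, 156 in line 13d and 106 in line 14d. The sums of these 5 lay between 129 and 291. Of the 2 measured Schwann cell markers 1, Pmp2, was on in lines 9v (44) and 10d (54). Pmp2 had 15 in line 13d and 9 in line 14d, and the sums of the 2 lay between 16 and 61. The part of these markers in the differences between lines was not tested. RNA integrity numbers lay between 9.7 and 9.9. Xist had an intensity of 2124 in line 13d, 1768 in line 14d and 4 in lines 9v and 10d, while the Y-linked gene Eif2s3y had 690 in line 9v, 1088 in line 10d and 13 in the other two, so the sexes followed the labels, whereas the article describes the mice as male. Ctnnb1, the gene of the transgene, lay between 30254 and 34368, and these probes need not tell the transgene from the endogenous gene. No member could be compared between 2 lines with a test, since each line had 1 array.

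The respiratory chain passes electrons from NADH and succinate to oxygen through complexes I to IV in the inner mitochondrial membrane, and complex V uses the resulting proton gradient to make ATP. Most subunits are encoded in the nucleus and are present in every cell, but a few subunits of complex IV exist as isoforms made mainly in heart and skeletal muscle, lung or testis. The Chchd proteins share a fold held by paired cysteines and act between the mitochondrial membranes, in the import of proteins, in the shape of the cristae and in the assembly of the chain.

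Chchd10, which encodes an intermembrane-space protein most abundant in heart and skeletal muscle, set line 9v apart from the rest. Its promoter window is shown because no other gene that was on in all 4 lines differed as much between them. The windows of Ndufaf4, Sdhaf3 and Chchd6 are shown because these members had the next largest folds among those on in all 4 lines. Each runs from 250 bases before to 50 bases after the start of the gene in RefSeq (GRCm38.p6), 5′ to 3′ on the gene's strand, with capitals for TGCGCA, the core of the site of NRF1 (a regulator of respiratory genes), and for CCGGAAG, a site of ETS factors such as GABPA. The window of Chchd6 holds neither and has no capitals.
Chchd10, chr10:75932880-75933179, plus strand: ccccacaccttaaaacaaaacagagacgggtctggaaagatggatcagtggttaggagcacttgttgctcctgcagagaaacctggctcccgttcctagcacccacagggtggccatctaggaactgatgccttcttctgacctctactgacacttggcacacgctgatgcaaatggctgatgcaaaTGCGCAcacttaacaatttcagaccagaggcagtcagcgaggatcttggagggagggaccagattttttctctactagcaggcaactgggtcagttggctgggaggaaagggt
Sdhaf3, chr6:6955768-6956067, plus strand: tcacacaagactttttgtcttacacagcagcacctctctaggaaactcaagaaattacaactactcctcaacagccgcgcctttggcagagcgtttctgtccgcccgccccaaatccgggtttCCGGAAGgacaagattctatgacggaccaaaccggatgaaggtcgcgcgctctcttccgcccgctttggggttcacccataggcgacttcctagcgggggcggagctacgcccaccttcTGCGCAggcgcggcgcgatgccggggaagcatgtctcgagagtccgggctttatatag
Ndufaf4, chr4:24897833-24898132, plus strand: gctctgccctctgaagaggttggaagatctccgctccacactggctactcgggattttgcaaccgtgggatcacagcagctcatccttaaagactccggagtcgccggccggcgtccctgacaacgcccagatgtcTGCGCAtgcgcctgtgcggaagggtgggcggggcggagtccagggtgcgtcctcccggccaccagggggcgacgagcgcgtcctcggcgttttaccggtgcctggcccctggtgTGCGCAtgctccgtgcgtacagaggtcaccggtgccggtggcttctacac
Chchd6, chr6:89595603-89595902, minus strand: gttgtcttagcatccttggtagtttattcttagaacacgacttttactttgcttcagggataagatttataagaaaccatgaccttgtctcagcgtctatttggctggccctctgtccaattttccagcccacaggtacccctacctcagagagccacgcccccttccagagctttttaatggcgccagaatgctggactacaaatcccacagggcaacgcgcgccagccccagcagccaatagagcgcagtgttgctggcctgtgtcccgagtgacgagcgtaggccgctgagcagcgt

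Counted from 0 at the first transcribed base, the TGCGCA of Chchd10 began at position -63 and that of Sdhaf3 at -8, with its CCGGAAG at -127. Ndufaf4 held TGCGCA at -114 and 0. Of other members with large folds, Sdha held TGCGCA at -56 and -11 and Ndufaf8 CCGGAAG at -8, and Chchd4, like Chchd6, held none of the sites searched. Both strands were searched, and no matches overlapped in these windows. Over the first listed window of every gene symbol, TGCGCA was present in 8.06% of 27025 promoters and in 21 of the 84 members with a window, and CCGGAAG in 9.12% of all and 23 of 84 members. Sites of other factors were searched in the same way. CACGTG, an E-box, was in 7.24% of all promoters and 8 of 84 members, CATGTG, the M-box read by MITF in pigment genes, in 14.1% and 6, and CTTTGA, the core of the Tcf/Lef site through which β-catenin acts, in 16.2% and 6. None of these last sites was in the 4 windows shown. A match of letters is a description of the window and does not show binding.

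Most of the chain lay at high and similar levels in the 4 lines. An intensity of 32 or more was taken as on, the level used for the whole series. Of the 101 members, 89 were on in all 4 lines, 3 in some of them and 9 in none. Values under 32 were raised to 32 before members were counted by their fold, so that dim values gave no ratios. Of the 92 members on in at least 1 line, 11 differed at least 2-fold between the brightest and the dimmest line, against 40.1% of the 9415 genes on in at least 1 line. The median fold was 1.45 for the members and 1.79 for all genes on. Members are bright genes. Among the 3318 genes with a mean log2 intensity of at least 10, 26.8% differed at least 2-fold, and of the 80 members among them 8 did. At the other end, 50 of the 92 members differed by less than 1.5-fold, against 30.1% of all genes on. Atp5mpl, a small subunit of complex V, was the steadiest, with intensities of 9113 in line 9v, 9170 in line 10d, 9130 in line 13d and 9452 in line 14d. The 11 members that differed at least 2-fold were Chchd10, Cox6a2, Ndufaf4, Sdhaf3, Chchd6, Ndufs1, Chchd5, Chchd4, Ndufb6, Sdha and Ndufaf8.

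**Figure D1:**
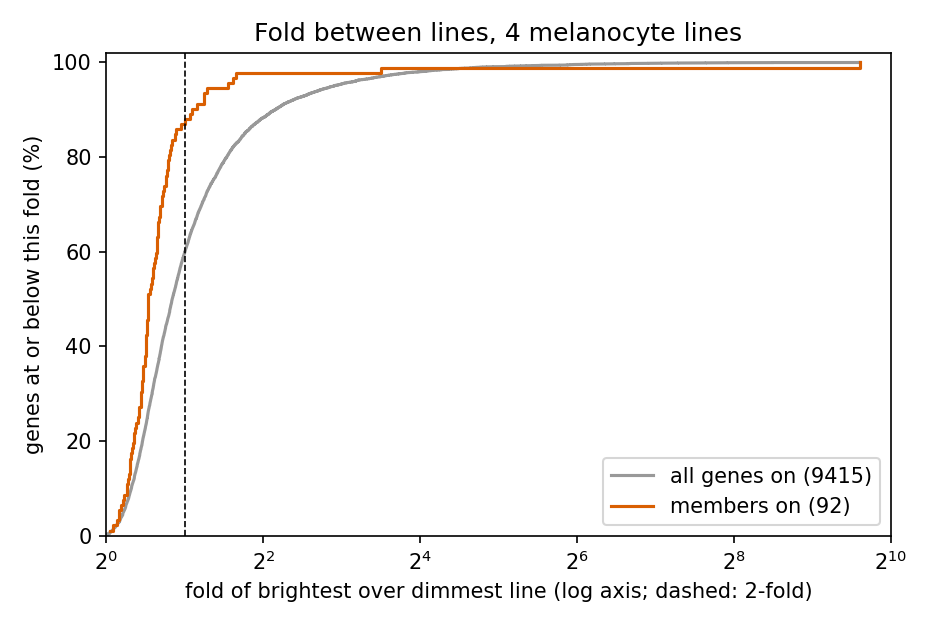
Cumulative share of genes (vertical axis, %) by the fold between their brightest and dimmest line (horizontal axis, log scale), for the 92 members on in at least 1 line (orange) and all 9415 genes on (grey). Values under 32 were raised to 32, and the dashed line marks 2-fold, which 11 members reached.

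Chchd10 had an intensity of 38 in line 9v, 29760 in line 10d, 2861 in line 13d and 1512 in line 14d. The gene was thus brightest in line 10d, lower by an order of magnitude in lines 13d and 14d, and next to the level taken as on in line 9v. Line 10d was 783.2-fold above line 9v, 10.4-fold above line 13d and 19.7-fold above line 14d, and line 13d was 1.89-fold above line 14d. This was the largest of the folds among the 8324 genes on in all 4 lines. Its second probe set gave the same order, with 4 in line 9v, 10644 in line 10d, 887 in line 13d and 486 in line 14d, and against the level of 32 line 10d was at least 332.6-fold above line 9v there. Line 9v was under the level with this probe set, which would make Chchd10 a gene on in some lines only. Both probe sets carry the suffix of the manufacturer for probes that may match related transcripts, although each is listed with Chchd10 alone. In RNA from a whole culture, more cells with a transcript and more of it per cell cannot be told apart.

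The genes around Chchd10 did not share its differences. On chromosome 10, Mmp11 ends 628 bases before Chchd10 and had an intensity of 7 or 8 in every line, and Vpreb3, which starts 5274 bases after it, had 3 in every line. Smarcb1, a subunit of chromatin remodelling complexes 11.5 kb away, lay between 910 and 1279. Of the 6 nearest genes with a probe set, 3 on each side, none differed at least 2-fold (all genes on: 40.1%). However, Derl3, Mmp11, Vpreb3 and Slc5a4b were under 32 in every line, so only Smarcb1 and Zfp280b were on. Muscle markers were looked at beside Chchd10 and Cox6a2 because both are muscle-enriched genes. Of 13 such markers, 2 were on in line 9v, 3 in line 10d, 3 in line 13d and 2 in line 14d. Their summed intensities were 166, 294, 594 and 170 in these lines. Acta1, at 51 or 52, and Des, at 32 to 36, were on in every line. Ckm, Mb, Actc1, Tnnt3, Tnni2 and the Myh genes were at 11 or less in every line. Most of the difference between these sums came from Tnnt2, with 13 in line 9v, 141 in line 10d, 438 in line 13d and 14 in line 14d.

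**Figure D2:**
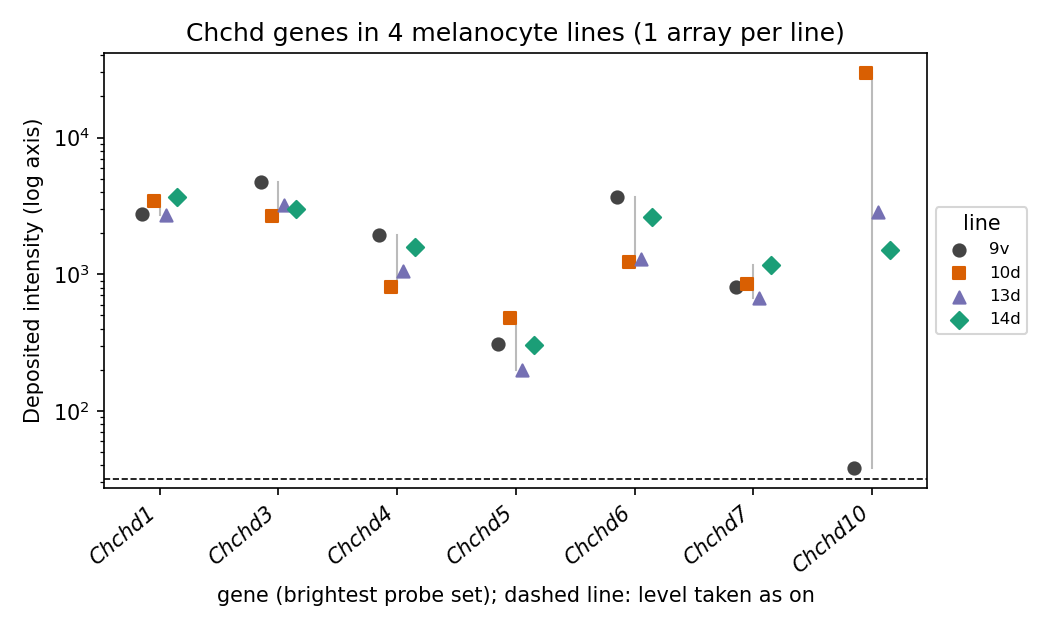
Deposited intensity (log axis) of the 7 Chchd genes in lines 9v, 10d, 13d and 14d, 1 array each and therefore without error bars. Chchd10 runs from 38 in line 9v, just above the dashed level of 32, to 29760 in line 10d, while the other 6 genes span 2.94-fold or less.

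The other Chchd genes were on in every line. Chchd6 and Chchd3 encode subunits of MICOS, the complex that holds the necks of the cristae. Chchd6 had an intensity of 3643 in line 9v, 1239 in line 10d, 1289 in line 13d and 2603 in line 14d, and so was lower in lines 10d and 13d than in both other lines. Its second probe set had 696, 251, 281 and 571, in the same order of lines. Chchd3 had 4740 in line 9v, 2668 in line 10d, 3209 in line 13d and 3001 in line 14d, highest in line 9v with the others within 1.20-fold of each other. Chchd4, the oxidoreductase that folds cysteine-rich proteins on import, had 1923 in line 9v, 813 in line 10d, 1063 in line 13d and 1593 in line 14d. Lines 10d and 13d were again the lower ones, and line 9v was 2.37-fold above line 10d. Chchd5, a small protein of the intermembrane space, had 307 in line 9v, 476 in line 10d, 200 in line 13d and 305 in line 14d. Its other probe set had 39 in lines 9v, 13d and 14d and 130 in line 10d, so both were highest in line 10d. Chchd1, a protein of the mitochondrial ribosome, and Chchd7 spanned 1.34-fold and 1.74-fold. Another Chchd7 probe set had 8 in lines 9v and 13d, 16 in line 10d and 108 in line 14d, and so was on in line 14d alone.

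Of the tissue isoforms of complex IV, a single gene was on in a line. Cox6a2, the subunit 6a of heart and skeletal muscle, had an intensity of 5 in line 9v, 364 in line 10d, 13 in line 13d and 6 in line 14d. It was on in line 10d alone, at least 11.4-fold above the level of 32, and was the 1 member counted as on in some lines only with at least 4-fold between lines, against 8.22% of all genes on. For this class the fold was taken without raising dim values, and with values raised to 32 it was again Cox6a2 alone, against 4.72% of all genes on. A second Cox6a2 probe set had 3 in every line, so that the result rests on 1 probe set. Of the 6 nearest genes with a probe set on chromosome 7, 3 on each side, none differed at least 2-fold (all genes on: 40.1%). Only 9130023H24Rik and Armc5 among them were on. The nearest, 4931431B13Rik at 2.11 kb, had 5 in every line. On the other side 9130023H24Rik, at 28.1 kb, had 255 in line 9v, 148 in line 10d, 161 in line 13d and 231 in line 14d, and so was lowest in line 10d, where Cox6a2 was highest. Cox6a1, the ubiquitous subunit 6a, had 31657 in line 9v, 40533 in line 10d, 38967 in line 13d and 43293 in line 14d, a span of 1.37-fold.

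The remaining 7 tissue isoforms were under 32 in all 4 lines. Cox7a1 and Cox8b, of heart and skeletal muscle, were at 6 in every line, Cox4i2, of lung, and Cox7b2, of testis, at 5, Cox8c, of testis, and Ndufa4l2, a gene induced by low oxygen, at 3, and Cox6b2, of testis, between 8 and 11. Their ubiquitous counterparts were bright where measured, but Cox7b, the counterpart of Cox7b2, had no probe set of its own. Cox4i1, Cox6a1, Cox6b1, Cox7a2, Cox8a and Ndufa4 were on in all lines, and 0 of these 6 differed at least 2-fold. Cox8a varied most, from 3794 in line 13d to 5857 in line 14d, a fold of 1.54. Ndufa4, named after complex I but now counted with complex IV, had 10253 in line 9v, 7179 in line 10d, 9023 in line 13d and 10387 in line 14d. Of the other members on in no line, Cox7c is a ubiquitous subunit whose brightest probe set was at 8 in every line, and Ndufb4, of complex I, was at 4 with its own probe set. Ndufb4 is also read by a pair of probe sets shared with its copies Ndufb4b and Ndufb4c. These had intensities from 6867 to 11340, so the value of 4 does not show that Ndufb4 was off. Values under 32 likewise do not by themselves show that Cox7c or the tissue isoforms were off. Ndufaf6 and Ndufb1 crossed the level of 32 by less than 4-fold, from 30 to 55 and from 28 to 39, as did 3.37% of all genes on.

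**Figure D3:**
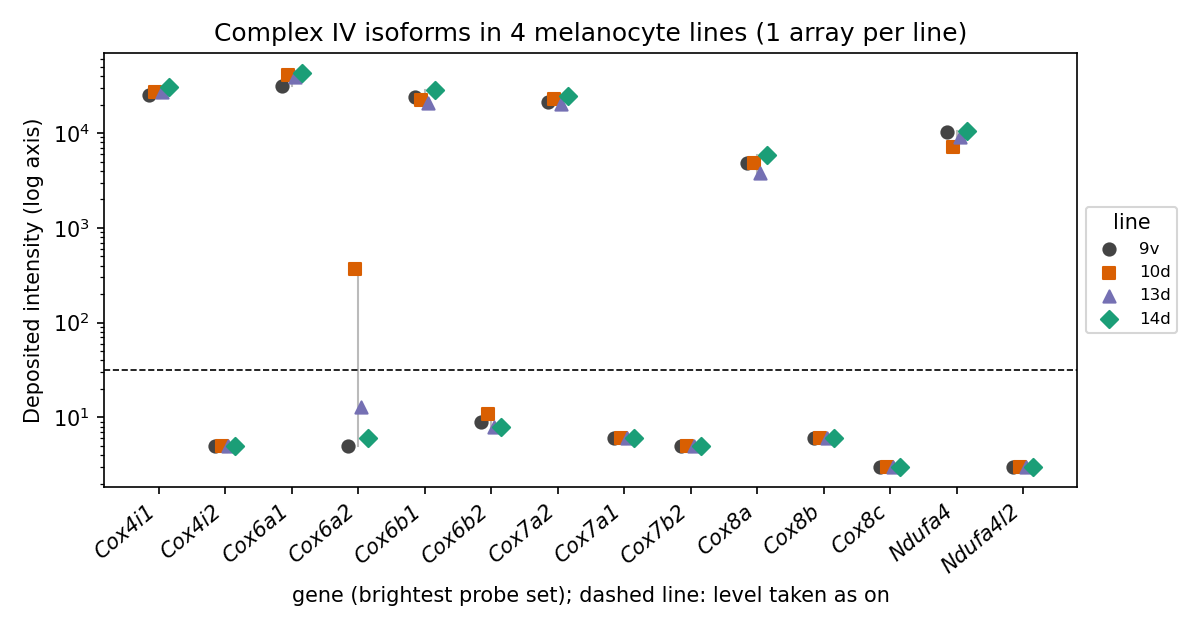
Deposited intensity (log axis) of complex IV subunits with tissue isoforms in lines 9v, 10d, 13d and 14d, 1 array each. The ubiquitous genes lie at 3794 or above, and the tissue isoforms lie under the dashed level of 32 except Cox6a2 in line 10d, at 364.

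Between pairs of lines, few members were at least 2-fold apart. Line 10d differed from line 9v in 6 of 92 members (all genes on: 17.3%), with Chchd10, Cox6a2 and Ndufaf4 higher (all genes on: 7.62%) and Chchd6, Sdhaf3 and Chchd4 lower (9.72%) in line 10d. Line 13d differed from line 9v in 3 (12.7%), with Chchd10 higher (5.88%) and Chchd6 and Sdhaf3 lower (6.79%) in line 13d. Line 14d differed from line 9v in Chchd10 alone (15.0%), which was higher in line 14d (5.78%), and 0 members were lower (9.24%). Lines 13d and 10d were apart in 3 members (14.3%), Chchd10, Cox6a2 and Chchd5, all lower in line 13d (6.08%), and 0 were higher (8.27%). The most members were apart between lines 14d and 10d, 9 in all (23.3%). Of these, Chchd6, Sdhaf3 and Ndufaf8 were higher (11.2%) and Chchd10, Cox6a2, Ndufaf4, Ndufs1, Ndufb6 and Sdha lower (12.1%) in line 14d. Lines 14d and 13d were apart in 3 (19.3%), with Chchd6 higher (8.54%) and Ndufs1 and Sdha lower (10.7%) in line 14d. The median log2 difference of the members was 0.06 between lines 10d and 9v and 0.30 between lines 14d and 13d, the lowest and the highest in size of these 6 pairs, while that of all genes on was 0.01 or less in size in every pair. Both are with values under 32 raised to 32, and without this the median of all genes on was 0.02 between lines 14d and 9v and 0 between lines 10d and 9v.

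Most members were brightest in line 14d. Line 14d was the brightest line for 49 of 92 members (all genes on: 29.6%) and the dimmest for 17 (27.4%), while line 13d was the dimmest for 42 (21.6%). Line 10d was the brightest for 25 (28.8%) and the dimmest for 15 (26.1%). Most of these differences were small. Relative to each gene's mean over the lines, the median over the 92 members was 0.16 on the log2 scale in line 14d, -0.13 in line 13d, 0.02 in line 10d and -0.03 in line 9v. The accessory subunits of complex I, which surround its core, had a median of 0.22 in line 14d (27 on), the core subunits of complex I 0.19 (6 on), complex IV 0.17 (11 on, Ndufa4 included) and complex V 0.11 (17 on). Genes of the cytosolic ribosome, looked at after the data were seen because most of them too are bright, had a median of 0.05 in line 14d. Of the 41 on, 23 were brightest in line 14d and 17 dimmest in line 13d, an order of the lines like that of the members. Centring the arrays on their medians, which moved line 10d up by 0.19 against line 9v over all genes on, left line 14d the brightest for 33 members and made line 10d the brightest for 46 (all genes on: 24.8% and 42.3%), so that the lead of line 14d over line 10d depends on the scaling.

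**Figure D4:**
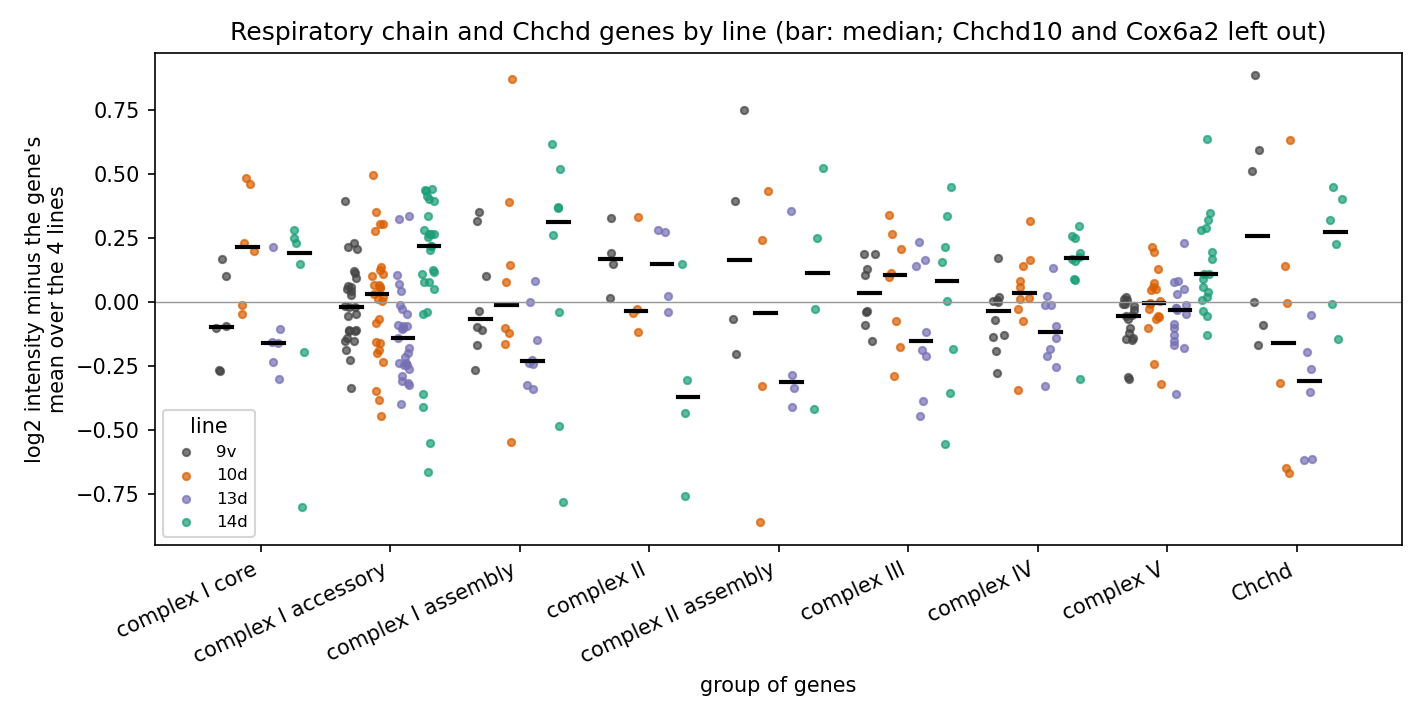
Log2 intensity of each member minus its mean over the 4 lines (vertical axis), by group of genes (horizontal axis) and line (colour), with 1 point per gene and a black bar for the median. Chchd10 and Cox6a2 are left out for scale. Line 14d lies above 0 for most accessory subunits of complex I and for complexes IV and V but below 0 for 3 of the 4 subunits of complex II.

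Complex II, the enzyme shared by the citrate cycle and the chain, went the other way in line 14d, where the median of its 4 subunits was -0.37. Sdha, the flavoprotein that oxidizes succinate, had an intensity of 4094 in line 9v, 4652 in line 10d, 4496 in line 13d and 2186 in line 14d. Its other detected probe set had 2360, 3020, 2773 and 1367, so with both the lowest value was in line 14d and the highest in line 10d. Sdhb, the iron-sulphur subunit, had 9113 in line 9v, 7038 in line 10d, 7388 in line 13d and 5879 in line 14d. Sdhc, a membrane anchor, had 5524, 4746, 5842 and 3574 in the same order of lines. Sdhd, the other anchor, had its highest value, 3240, in line 14d and spanned 1.20-fold.

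The core subunits of complex I, which hold its redox centres, did not share 1 order of the lines. Of 6 measured, 3 were brightest in line 14d (Ndufs3, Ndufs8 and Ndufv2) and 2 dimmest there (Ndufs1 and Ndufv1). Ndufv2, an iron-sulphur subunit, had an intensity of 8702 in line 9v, 12319 in line 10d, 8912 in line 13d and 12746 in line 14d, so that lines 10d and 14d were close. Ndufs1, the largest subunit of complex I, had an intensity of 4570 in line 9v, 5951 in line 10d, 4942 in line 13d and 2443 in line 14d. Each of the other lines was at least 1.87-fold above line 14d. Uqcrfs1, the Rieske iron-sulphur protein of complex III, had 5679, 5760, 5591 and 3390 in lines 9v, 10d, 13d and 14d, with the first 3 lines close together. Of the 8 measured genes of a list of catalytic and core subunits, 5 were dimmest in line 14d (Ndufs1, Ndufv1, Sdha, Sdhb and Uqcrfs1), against 27.4% of all genes on. This list holds 2 of the 6 core subunits of complex I, and the 3 that were brightest in line 14d are not in it. Ndufv1, which binds NADH, had 5427 in line 14d and 5572 in line 13d, so these did not stand apart. Uqcrc1, a core protein of complex III, was brightest in line 14d, with 3827 against 2291 to 2732. Atp5a1 and Atp5b, the subunits of the catalytic head of complex V, spanned 1.27-fold and 1.12-fold. Among accessory subunits of complex I, Ndufb6 had 19157 in line 9v, 23292 in line 10d, 15993 in line 13d and 10414 in line 14d, and its second probe set was also lowest in line 14d, at 3921 against 6280 to 7804. Ndufa10 was at 3849 in line 14d against 5461 to 7066. In contrast, the accessory subunit Ndufa1 was at 18257 in line 14d against 11643 to 13862, Ndufa13 at 18163 against 12005 to 13018, and Atp5e, the smallest subunit of the head of complex V, at 10612 against 5312 to 6667.

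**Figure D5:**
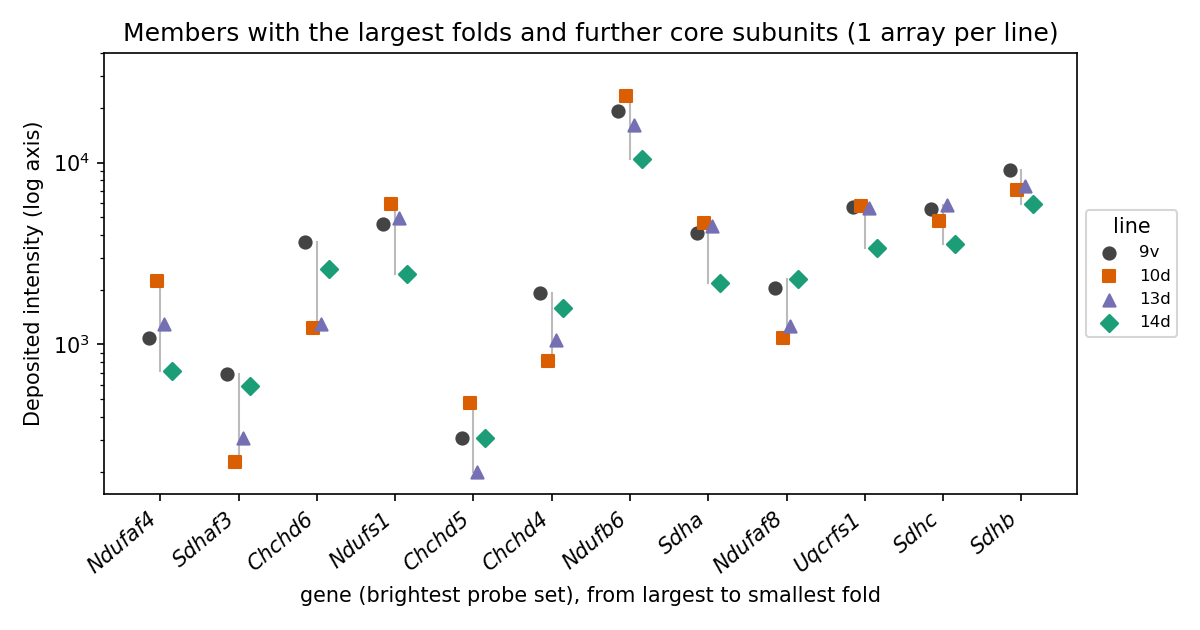
Deposited intensity (log axis) of 12 members in lines 9v, 10d, 13d and 14d, 1 array each, from Ndufaf4 (3.14-fold between lines) to Sdhb (1.55-fold). Line 14d is lowest for Ndufaf4, Ndufs1, Ndufb6, Sdha, Uqcrfs1, Sdhc and Sdhb, and lines 10d and 13d lie below lines 9v and 14d for Sdhaf3, Chchd6, Chchd4 and Ndufaf8.

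Assembly factors, which help to build the complexes but are not part of them, made up 3 of the 11 members that differed at least 2-fold. These were 2 of 8 factors of complex I and 1 of 4 of complex II, against 40.1% of all genes on. Ndufaf4, a factor of complex I, had an intensity of 1088 in line 9v, 2236 in line 10d, 1296 in line 13d and 711 in line 14d, a span of 3.14-fold between lines 10d and 14d. Its second probe set had 642, 1621, 751 and 312, in the same order of lines. Ndufaf8, which acts with Ndufaf5, had 2031 in line 9v, 1087 in line 10d, 1271 in line 13d and 2281 in line 14d. Ndufaf5, which modifies a core subunit of complex I, had 441 in line 14d and 227 to 267 in the other lines. Of the 4 factors of complex II, Sdhaf3, which protects the iron-sulphur subunit, had 688 in line 9v, 225 in line 10d, 308 in line 13d and 588 in line 14d. It was lower in lines 10d and 13d, and line 9v was 3.06-fold above line 10d. Sdhaf4 had another pattern, with 2261 in line 9v and 2197 in line 13d against 1368 in line 10d and 1288 in line 14d. Groups of genes were also compared by their median fold between lines. It was 1.64 over 8 factors of complex I and 1.73 over 4 factors of complex II, against 1.79 over all genes on. Of the subunits, 6 core and 27 accessory ones of complex I had 1.44 and 1.51, and 4 of complex II had 1.59. The median was 1.51 over 8 subunits of complex III, 1.38 over 11 genes of complex IV and 1.25 over 17 of complex V. Over 7 Chchd genes it was 2.37.

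Genotype was then compared as the labels give it, bcat* (10d and 13d) against WT (9v and 14d), with limma over the 8892 genes with a mean log2 intensity of at least 5. Of the 91 members tested, 0 passed an adjusted p of 0.05 (all genes: 0.0%). At an unadjusted p under 0.05, 4 members passed, all of them lower in bcat* (4.4% of members), against 4.8% of all genes that were lower and 7.93% in either direction, and 0 were higher (3.13%). These were Chchd6, Sdhaf3, Ndufaf8 and Chchd4. Chchd6 had a log2 difference of -1.28 (95% confidence interval -2.03 to -0.54), with an adjusted p of 0.506 in limma. The differences were -1.27 for Sdhaf3 (-2.12 to -0.42), -0.87 for Ndufaf8 (-1.53 to -0.21) and -0.91 for Chchd4 (-1.68 to -0.15), with adjusted p-values in limma from 0.558 to 0.604. Chchd10 had a log2 difference of 5.27 with an interval from -0.63 to 11.2, as its values differed within each group by more than an order of magnitude, and an adjusted p of 0.646 in limma. Both bcat* lines lay below both WT lines for 23 of 92 members (all genes on: 20.1%) and above them for 11 (19.1%).

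With the genotypes of the article, bcat* (10d and 14d) against WT (9v and 13d), limma again called 0 members and 0 genes in all at an adjusted p of 0.05 (0.0%), and 3 members had an unadjusted p under 0.05 (all genes: 3.7%). Ndufv2 and Ndufs8, core subunits of complex I, were the higher of these (1.14%) and Sdhaf4 the lower (2.56%), with an adjusted p of 0.973 each in limma. The differences of Chchd6, Sdhaf3, Ndufaf8 and Chchd4 were then -0.27, -0.34, -0.03 and -0.33. Both bcat* lines lay above both WT lines for 37 of 92 members (all genes on: 16.5%) and below them for 7 (14.5%). Lines 10d and 14d were also those in which most members were brightest. Genes of 1 array are not independent replicates. With 2 lines a group, a limma p-value rests on the spread between these lines, moderated by a trend over all genes tested. No other lines enter it.

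Other genes of mitochondrial function were read from lists made by function, and with the labelled genotypes limma called 0 of them at an adjusted p of 0.05. Of 17 regulators of mitochondrial biogenesis, 3 had an unadjusted p under 0.05 and a higher value in bcat*, and 1 a lower value (all genes: 3.13% higher and 4.8% lower). The higher ones were Polrmt, the mitochondrial RNA polymerase, Tfb2m, its initiation factor, and Gabpa, an ETS factor of respiratory genes. Tfb2m had an intensity of 1407 in line 9v, 2701 in line 10d, 2722 in line 13d and 1274 in line 14d, a log2 difference of 1.02. Polrmt had 156, 319, 295 and 137 in these lines. The lower one, Tfb1m, which methylates mitochondrial ribosomal RNA, had 359, 165, 187 and 336. Ppargc1a, a coactivator of biogenesis, had 95 in line 9v, 62 in line 10d, 36 in line 13d and 17 in line 14d, under the level of 32. Of 31 tested assembly factors outside the rule, 1 had an unadjusted p under 0.05, Bcs1l, lower in bcat* (all genes: 4.8%). Bcs1l, which inserts the Rieske protein into complex III, had 487 in line 9v, 182 in line 10d, 229 in line 13d and 466 in line 14d. Coa7, a factor of complex IV, had the highest fold of that list, with 131, 165, 198 and 58 in these lines. Of 14 citrate cycle genes, 1 had an unadjusted p under 0.05, Ogdh, of the oxoglutarate dehydrogenase, higher in bcat* (all genes: 3.13%). Ogdh had 1284, 2546, 2511 and 1453 in these lines. Suclg2, of succinyl-CoA synthetase, had the highest fold of the citrate cycle genes, with 3204, 1183, 1709 and 1491. The median of the 14 was highest in line 10d, at 0.23 relative to the mean over lines. That of 76 genes of the mitochondrial ribosome was 0.18 in line 10d and 0.07 in line 14d. Of these 76, 2 had an unadjusted p under 0.05 and a lower value in bcat* (all genes: 4.8%), and 0 a higher one (3.13%). Of the 6 measured genes of the cristae, Micos10, a subunit of MICOS, had the highest fold, with 5385 in line 9v, 5653 in line 10d, 4995 in line 13d and 2699 in line 14d.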

How the data were processed

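RNA from each of the 4 lines was hybridized to 1 Affymetrix array. Intensities were deposited for every probe set and had been computed with GCRMA, per the submitters' processing notes (version not given in the sources used here). They were whole numbers from 2 to 84904 with medians of 7 or 8, which shows a linear scale not centred per gene, and log2 was taken. Because of the rounding, small intensities give imprecise ratios. Precision is limited by having few arrays.

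The array annotation paired 34945 of the 45037 probe sets with a single gene, 932 with more than 1 and 9160 with no gene. All 101 members had their Entrez gene in the RefSeq table of GRCm38.p6, and 58 had several probe sets. Of the 108 protein-coding RefSeq genes in the rule, 7 had no probe set of their own and were not analysed as members. The members and lists were chosen with earlier results of these data known.

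Genotypes were compared with limma (lmFit and eBayes with a trend, Benjamini-Hochberg adjustment). The code was also run on simulated data with the same spread for every gene, which does not show the power of limma in these lines. The 2 lines of a genotype are separate lines from separate pups. The alternatives tried were averaging a gene's probe sets, dropping suffixed probe sets, median centring, quantile normalization, cyclic loess and an offset of 16. Suffixed probe sets were those ending in _a_at, _s_at or _x_at, and the first of these endings need not mark cross-hybridization. Also tried were detection levels of 16 and 64, fold thresholds of 1.5 and 3, other filters and no trend. The last were the article's genotypes, sex as a block and leaving out each line. Named were members on in some lines only, tissue isoforms and their counterparts, Chchd genes, the 12 members with the largest folds, 8 catalytic or core subunits and, from some of the other lists, up to 2 genes with the largest folds. Ndufa1, Ndufa10, Ndufa13, Atp5mpl, Ndufb1, Ndufb4, Cox7c, Sdhc, Sdhd, Sdhaf4, Ndufaf6, Ndufs3, Ndufs8, Ndufv2, Pdk1, Slc2a1, the neighbouring genes and the genes at an unadjusted p under 0.05 were named after their values were seen. Python 3.11.15, NumPy 2.4.6, pandas 2.3.3, matplotlib 3.10.9, R 4.3.3 and limma 3.58.1 were used.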

Additional observations from a re-analysis of the deposited data

Results flagged for a closer look

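A pair of members moved in opposite directions in the 2 pairs of lines that share a labelled sex, each by at least 1.5-fold, with the labelled genotypes. Chchd5 had a log2 difference of 0.63 between line 10d and line 9v and of -0.61 between line 13d and line 14d. Sdhaf4 had -0.72 and 0.77 in these pairs. With the article's genotypes the second pair is read as line 14d against line 13d. The differences there were 0.61 for Chchd5 and -0.77 for Sdhaf4, in the direction of the first pair. The differences between the sexes were not tested, since each pair holds 1 array per line. How many of all genes on moved in opposite directions in this way was not counted. At 1.5-fold, 36.4% of all genes on were apart between lines 10d and 9v and 39.7% between lines 14d and 13d.

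Some probe sets are listed with several genes and entered no comparison, but gave clear signals. The pair shared by Ndufb4, Ndufb4b and Ndufb4c had lowest intensities of 8167 and 6867 over the 4 lines. A probe set of Chchd2, the closest relative of Chchd10, and a pseudogene of it had intensities of 33210 in line 9v, 33883 in line 10d, 35836 in line 13d and 36103 in line 14d, so its lowest value was 33210 and it spanned 1.09-fold. The probe set shared by Ndufa11 and Ndufa11b had a lowest value of 2832 and that shared by Ndufs6 and Ndufs6b of 3024. None of these values can be given to a single gene.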

How the results depend on the processing

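Lines could not be paired by replicate, because the labels give them no replicate numbers, and those used here only name lines in accession order. Labelled sex as a block, which sets 10d beside 9v and 13d beside 14d, called 0 members at an adjusted p of 0.05 and 4 at an unadjusted p under 0.05. At an adjusted p of 0.05, 0 members were called under every alternative. At an unadjusted p under 0.05, the count of 4 members ranged from 2 to 6 when 1 line was left out (2 without line 10d, 6 without line 9v), and the share of all genes moved with it, from 7.93% to 4.95% and 9.56%. Over all genes, 9 were called at an adjusted p of 0.05 after median centring, 8 with the mean of all probe sets, 6 without the trend and 232 with no filter on dim genes, against 0.

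The 11 members at least 2-fold apart became 42 at 1.5-fold (all genes on: 69.9%) and 4 at 3-fold (18.7%). At 1.5-fold the pairs gave 12 members for 10d and 9v (36.4%), 7 for 13d and 9v (27.2%), 16 for 14d and 9v (32.5%), 9 for 13d and 10d (32.3%), 22 for 14d and 10d (42.8%) and 26 for 14d and 13d (39.7%). Without suffixed probe sets, Chchd10 and Ndufs1 had no probe set left. Of the 67 members then on, 0 were apart between 14d and 9v (15.6%) and 5 between 14d and 10d (24.1%). Members on in some lines only were 2, Chchd10 and Cox6a2, at a detection level of 64 and when all probe sets of a gene were averaged, where the fold is taken without raising dim values. With averaged probe sets Cox6a2 spanned 0.05 on the log2 scale with values raised to 32, since its second probe set was at 3 in every line, and Sdhaf3 spanned 0.88. No median of a complex in a line moved by 1.5-fold or more in the 216 values under other settings. Without suffixed probe sets, line 13d was the dimmest for 27 of 67 members (40.3%, all genes on: 20.8%), against 42 of 92. Both bcat* lines of the labels then lay below both WT lines for 13 of 67 (19.8%), and after median centring for 13 of 92 (14.8%). The causes were not tested. For members under the level taken as on, differences between lines cannot be read.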

Other observations

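Targets of hypoxia signalling, a pathway tied to the isoforms Ndufa4l2 and Cox4i2, were measured beside them, and both isoforms were at 5 or less in every line. Of 9 such genes on in at least 1 line, 5 differed at least 2-fold between lines, with a median fold of 3.03, against 40.1% and a median of 1.79 over all genes on. Bnip3, which acts in the removal of mitochondria, had an intensity of 290 in line 9v, 45 in line 10d, 6 in line 13d and 127 in line 14d. Pdk1, the kinase that holds back pyruvate dehydrogenase, had 1032 in line 9v, 230 in line 10d, 384 in line 13d and 244 in line 14d. Slc2a1, a glucose transporter, had 780 in line 14d and 2625 to 2933 in the other lines, and Adm, which encodes adrenomedullin, had 334 in line 14d and 7 or less elsewhere. These genes did not share 1 order of the lines. With the labelled genotypes limma called 0 of the 8 tested at an adjusted p of 0.05, and 1, Bnip3, had an unadjusted p under 0.05, with an adjusted p of 0.604 in limma.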
